A study of Homo sapiens with 3 samples.

Results

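Netrins are secreted guidance proteins, and their receptors of the UNC5 family, DCC and neogenin belong to the dependence receptors, which signal for survival or migration when netrin is bound and can trigger apoptosis when it is absent. The 9 genes described here are 6 receptors (UNC5A, UNC5B, UNC5C, UNC5D, DCC and NEO1) and 3 ligands (NTN1, NTN3 and NTN4), out of 43317 gene names on the array. They were found by the gene name that the array files give to a probe, which yielded 11 probes, with 2 each for UNC5C and UNC5D. The set was chosen by the log2 fold change of UNC5A between knockdown and control on these same arrays, 1 of the genes that the study listed, together with its relatives, so all values below are a description with no test.

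The cells were HCT116, an established human colorectal carcinoma line, transfected with small interfering RNA against SMARCA4 (SMARCA4-KD1 and SMARCA4-KD2) or with the scrambled negative control (NC). SMARCA4, also called BRG1, is one of the ATPases that power SWI/SNF remodeling of nucleosomes. All cells were grown in McCoy's 5A medium with serum and transfected with the same lipid reagent. Each of the 3 conditions has a single array, which sets the precision, and no replicates. SMARCA4-KD1 and SMARCA4-KD2 were hybridised on slide 1 and NC on slide 2, scanned separately, so slide and knockdown cannot be told apart. Both knockdowns were read against the same NC array.

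The sample titles name SMARCA4 while the treatment field names PRMT1, and the numbers of the knockdowns come from the treatment field. The SMARCA4 probe, at chr19:11172673-11172732 of hg19, left 26.6% of the NC level in SMARCA4-KD1 and 28.8% in SMARCA4-KD2. PRMT1 stood at 120% and 129% of NC. The labels number the siRNAs 1 and 2 without saying which array each belongs to. The first is shown because it defines a knockdown.

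SMARCA4 siRNA-1: ucgcuuugguucgcaaauc

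Between 45.7% and 47.3% of the 58201 probes were well above background on an array, as called by the extraction software. The epithelial markers EPCAM, CDH1, KRT8, KRT18, KRT19 and CLDN4 were all well above background on the 3 arrays, as were CDX1 and CDX2 of the colon list, while VIL1, GPA33, LGALS4 and CDH17 were not on any array. Of the markers of other cell types, 3 of 6 neuronal, 2 of 4 endothelial, 1 of 4 fibroblast and 2 of the 3 leukocyte genes on the array were well above background on all arrays. The endothelial genes CDH5 and VWF had log2 fold changes of 0.23 and 0.13 in SMARCA4-KD1, against 0.70 and 1.08 in SMARCA4-KD2. CLDN4 was the only marker past 1.5-fold in both knockdowns, at -0.67 and -0.68, and the neuronal RBFOX3 was at -0.26 and -0.63. The part of these markers in the values below was not tested. All arrays read bulk RNA of a single cell line, so these marker signals do not count cells of other types. Fewer cells expressing a gene and less RNA per cell cannot be told apart.

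DCC and the UNC5 receptors are best known for steering axons, and in the colon they are studied as candidate tumor suppressors whose expression is often lost. Netrin-1, the product of NTN1, is the main ligand of DCC and UNC5 receptors. Neogenin, the product of NEO1, also binds repulsive guidance molecules. Netrin-4, from NTN4, is a basement membrane protein that binds laminin.

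Of the 9 genes, 5 were well above background on all 3 arrays (UNC5A, UNC5B, NEO1, NTN1 and NTN4) and 4 were not on any (UNC5C, UNC5D, DCC and NTN3). Detection of 55.6% of the members compares with 52.2% of all gene names on the array that had a probe well above background on at least 1 array. Each of the 5 measured genes rests on 1 probe with 1 spot per array, and no spot of the 11 probes was saturated or carried an outlier flag. The first 30 bases of these 5 probes are shown because every fold change of the members is read from them.

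UNC5A probe: tgtacacctgaggctgctcacgtctcacgc
UNC5B probe: aaaccacaagggaaaagaaaaacccagttt
NEO1 probe: aattcttctgtgcaatagatgggtttgagg
NTN1 probe: gttggttagagttgtaatggacccagatgg
NTN4 probe: atgtagacatatgcttggctaaaggggaaa

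UNC5A encodes a netrin-1 receptor with a cytoplasmic death domain, and it was the member with the lowest values in the knockdowns relative to NC. Its probe lies at chr5:176307504-176307563 of hg19 on the forward strand and starts at base 3337 of the transcript. The processed signal, an intensity not yet scaled between arrays, was 149.3 on the NC array, 82.7 on the SMARCA4-KD1 array and 87.5 on the SMARCA4-KD2 array. Both knockdown arrays were below NC, and they lay closer to each other than to NC. Each signal was then divided by the signal at the 75th percentile of its array, equal to 236.9 and 228.5 for the knockdowns and 223.4 for NC. On this scale UNC5A was at 0.668 in NC, at 0.349 with the first knockdown and at 0.383 with the second. It thus stood at 52.3% of its NC level in SMARCA4-KD1 and at 57.3% in SMARCA4-KD2, 1.91-fold and 1.74-fold lower. These are log2 fold changes of -0.94 ± 0.22 and -0.80 ± 0.21, where the error is that of the extraction software for 1 spot on each of 2 arrays and holds no spread between cultures. With normexp background correction the log2 fold changes were -0.67 and -0.58, and the second no longer reached 1.5-fold. Scaled on spike-in RNA instead, they were -0.63 and -0.49, and again only the first reached it.

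**Figure D1:**
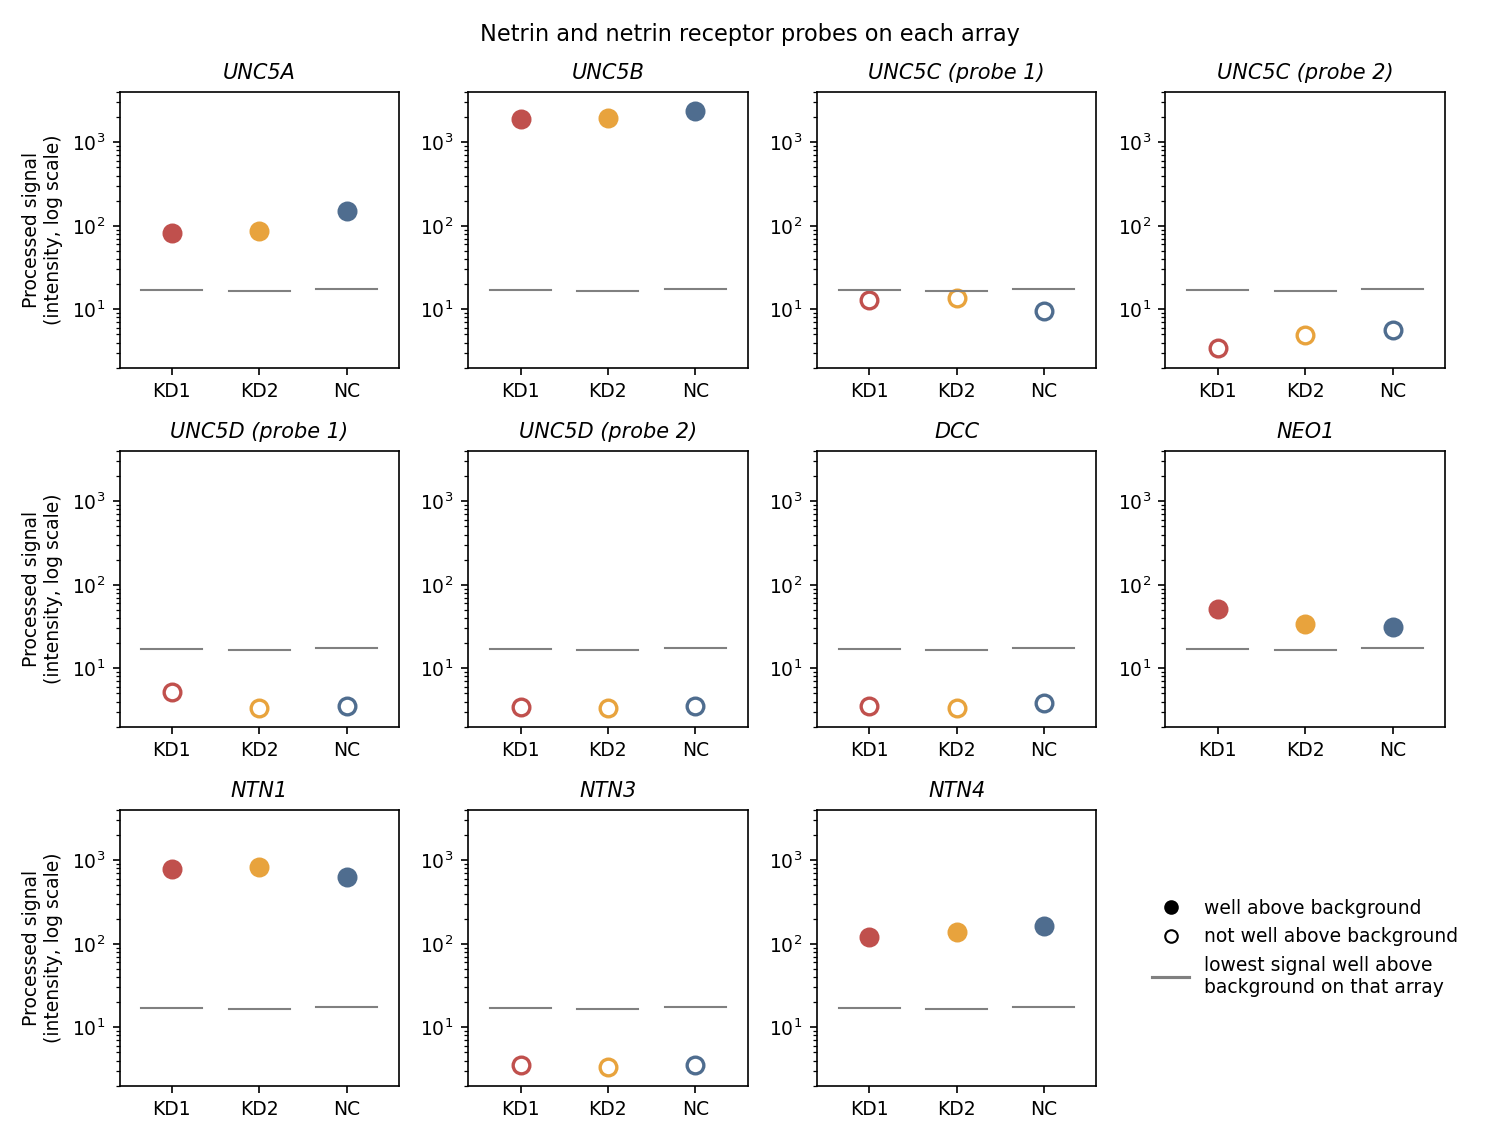
Processed signal (intensity, log scale) of each of the 11 probes on the SMARCA4-KD1, SMARCA4-KD2 and NC arrays, with filled points well above background, open points not well above background and grey lines at the lowest signal well above background on each array. UNC5A went from 149.3 in NC to 82.7 and 87.5 in the knockdowns, while all points of UNC5C, UNC5D, DCC and NTN3 are open; levels of different probes are not comparable.

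UNC5B, a receptor of the same family that is known as a p53 target and in blood vessel guidance, had a signal of 2367 on the NC array, 1882 on that of SMARCA4-KD1 and 1958 on that of SMARCA4-KD2. Both knockdown arrays lay below NC, by a smaller margin than for UNC5A. After scaling, UNC5B was 1.33-fold and 1.24-fold lower than NC, log2 fold changes of -0.41 ± 0.20 and -0.31 ± 0.20. With spike-in scaling these were -0.11 and 0.010, so the direction in SMARCA4-KD2 turned. Its probe lies at chr10:73059597-73059656 of hg19 and starts at base 3851 of the transcript.

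NEO1, the gene of neogenin, had a signal of 30.9 on the NC array, 51.3 on that of SMARCA4-KD1 and 34.4 on that of SMARCA4-KD2. Only SMARCA4-KD1 stood apart, with the other knockdown close to NC. The log2 fold changes were 0.65 ± 0.28 in SMARCA4-KD1, a 1.57-fold higher level, and 0.12 ± 0.30 in SMARCA4-KD2. NEO1 lay nearest of the measured members to the lowest signal well above background, which was 16.9, 16.4 and 17.7 on the SMARCA4-KD1, SMARCA4-KD2 and NC arrays. With normexp background correction its log2 fold changes were 0.13 and -0.040, so the difference in SMARCA4-KD1 depended on the background correction and the sign in SMARCA4-KD2 turned. With spike-in scaling they were 0.95 and 0.44. The NEO1 probe lies at chr15:73596015-73596074 of hg19 and starts at base 5555 of the transcript.

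The remaining receptors were not well above background on any array. DCC, the receptor gene deleted in colorectal cancers from which it has its name, read 3.55 and 3.34 in the knockdowns and 3.80 in NC by its probe at chr18:51057002-51057061. UNC5C, a further UNC5 receptor, had a probe at chr4:96141165-96141224 with 12.9, 13.6 and 9.54 and another at chr4:96089714-96089773 with 3.48, 4.88 and 5.63, in the order SMARCA4-KD1, SMARCA4-KD2 and NC. The knockdown arrays were above NC by the first UNC5C probe and below it by the second, and since neither probe was well above background no fold is given. Both UNC5D probes, at chr8:35651899-35651958 and chr8:35648022-35648081, had signals between 3.32 and 5.20. All these signals were below the lowest signal well above background on their array, so a difference between knockdown and NC was not detectable.

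Among the ligands, NTN1 had a signal of 627 on the NC array, 791 on that of SMARCA4-KD1 and 822 on that of SMARCA4-KD2. Both knockdown arrays were above NC, the opposite side from UNC5A and UNC5B. After scaling, NTN1 was 1.19-fold and 1.28-fold higher, log2 fold changes of 0.25 ± 0.20 and 0.36 ± 0.20. Its probe lies at chr17:9147220-9147279 of hg19 and starts at base 5856 of the transcript.

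NTN4 had a signal of 164 on the NC array, 122 on that of SMARCA4-KD1 and 139 on that of SMARCA4-KD2, by a probe at chr12:96051975-96052034 that starts at base 3163 of the transcript. The knockdown arrays were both below NC, and SMARCA4-KD1 was the lower. The log2 fold changes were -0.51 ± 0.21 and -0.27 ± 0.21, or 1.43-fold and 1.21-fold lower. With spike-in scaling they were -0.21 and 0.042, and the direction in SMARCA4-KD2 turned as well. NTN3, a netrin close to netrin-1 in sequence, was not well above background, with signals of 3.49, 3.34 and 3.53 by its probe at chr16:2523444-2523503.

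**Figure D2:**
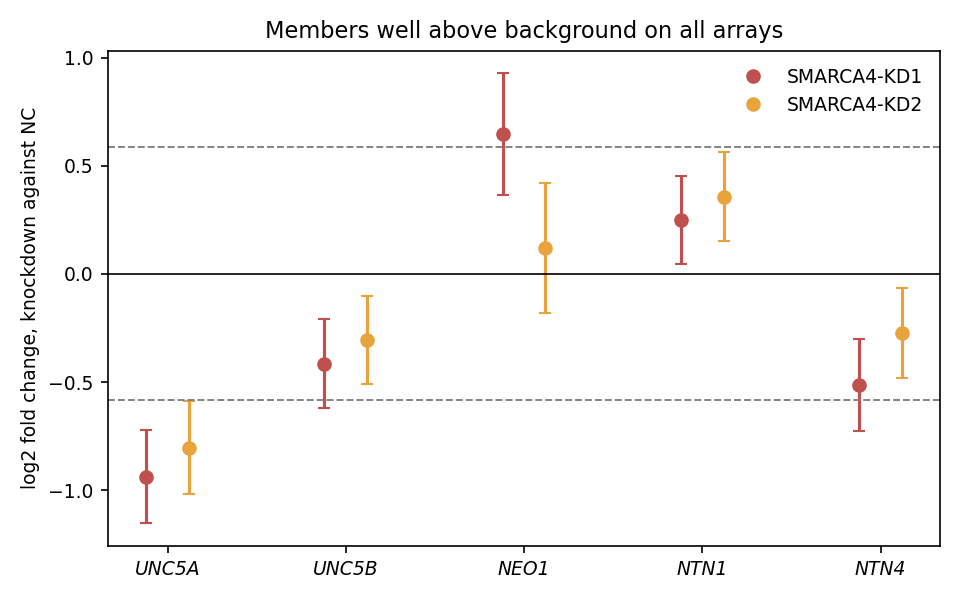
Log2 fold change of SMARCA4-KD1 and SMARCA4-KD2 against NC for the 5 members well above background on all arrays, with error bars from the extraction software and dashed lines at 1.5-fold. UNC5A was beyond 1.5-fold lower in both, at -0.94 and -0.80, and NEO1 was beyond 1.5-fold higher in SMARCA4-KD1 only, at 0.65.

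At 1.5-fold, the fold threshold of the study, 1 member (UNC5A) lay below NC with both siRNAs and 0 lay above. Over all 22619 genes kept, the same held for 8.02% below and 6.36% above. The study also set a limit on the p-value, which 1 array per condition does not allow here. The calls of the members are those of the contrast by which they were chosen, and nothing is read from their share. In SMARCA4-KD1 alone 1 member was lower (UNC5A), where 12.2% of all genes were, and 1 was higher (NEO1), where 11.2% were. In SMARCA4-KD2 alone 1 member was lower, against 9.74% of all genes, and 0 were higher, against 10.1%. Over the 5 measured members the log2 fold changes had a median of -0.41 with the first knockdown and -0.27 with the second, beside medians of -0.0022 and 0.021 for all genes. UNC5A, by which the set was chosen, is among the 5, while NEO1 and NTN1 lay above NC in both knockdowns. Nothing is read from these medians either.

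Among all genes, 4.46% had a log2 fold change as low as that of UNC5A in SMARCA4-KD1, 4.90% did so in SMARCA4-KD2, and 739 genes (3.27%) were as low or lower in both. The corresponding shares were 19.1% and 22.1% for UNC5B and 14.6% and 24.0% for NTN4. NTN1 lay on the other side, with 28.7% of genes as high in the first knockdown and 21.4% in the second. For NEO1 these shares were 9.29% and 40.6%.

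**Figure D3:**
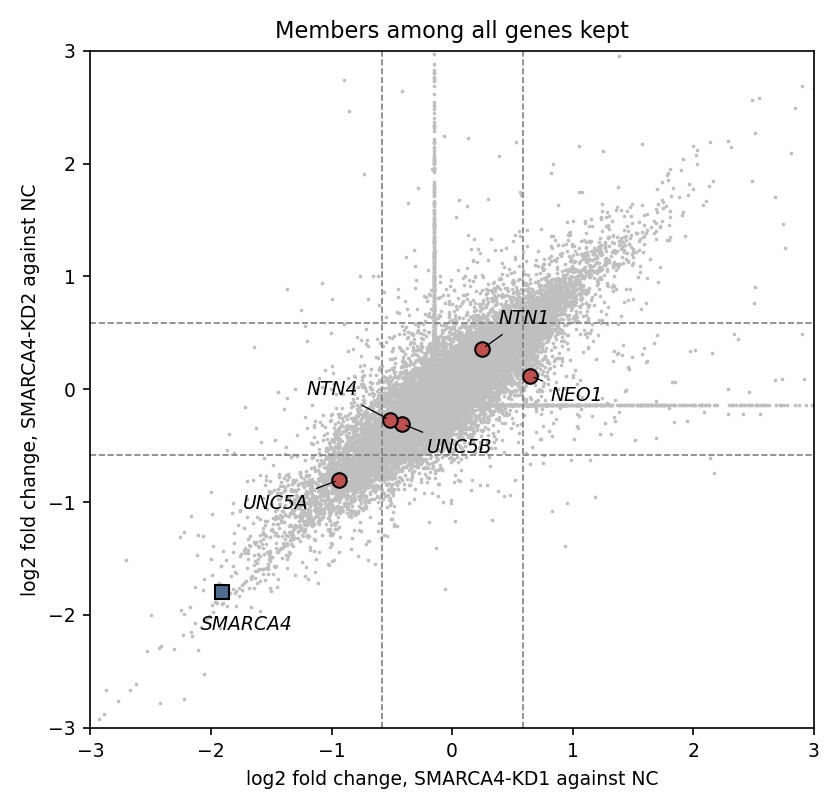
Log2 fold change against NC of SMARCA4-KD1 (horizontal axis) and SMARCA4-KD2 (vertical axis) for the genes kept (grey; 62 lie outside the range), the 5 measured members (red circles) and SMARCA4 (blue square), with dashed lines at 1.5-fold. The diagonal spread includes the NC array that both axes share. The level and upright straight rows of grey points are genes not well above background in NC and 1 knockdown. Genes well above background in NC only form a straight diagonal line where both knockdown values were set to the lowest value well above background. Their values on the axes agree by the processing. Of the members UNC5A alone lies in the lower left field, at -0.94 and -0.80.

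The knockdown arrays shared a slide, so their difference is free of the slide. SMARCA4-KD1 and SMARCA4-KD2 were at least 1.5-fold apart for 6.58% of all genes and for none of the 5 measured members. NEO1 came closest, at 0.53 ± 0.27 higher in SMARCA4-KD1 on the log2 scale, a difference that 3.60% of genes reached in that direction. UNC5A differed by -0.13 ± 0.22, UNC5B by -0.11 ± 0.20, NTN1 by -0.11 ± 0.20 and NTN4 by -0.24 ± 0.21, SMARCA4-KD1 being the lower in each. Of these, UNC5A, UNC5B and NTN1 were within the error of the extraction software.

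Genes with a pattern like that of UNC5A were sought by the distance between pairs of log2 fold changes, over the 19496 genes well above background on all 3 arrays. The nearest were PELP1, a coregulator of nuclear receptors (-0.94 and -0.80), CYTH4, an exchange factor for ARF GTPases (-0.94 and -0.80), DDX46, a splicing helicase (-0.93 and -0.79), the non-coding lnc-SCRG1-1 (-0.94 and -0.79) and SLC1A3, a glutamate transporter (-0.94 and -0.82). Within 0.1 of UNC5A lay 149 of these genes.

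The setting of these genes was read from a list of 68 further genes, hand-written with earlier results of these data known. Of the 68, 59 were well above background on at least 1 array. Past 1.5-fold with both siRNAs lay 7 of the 59 (11.9%) below NC and 3 (5.08%) above, beside 8.02% and 6.36% of all genes. With spike-in scaling the balance turned, with 3 below and 12 above, beside 2.89% and 19.2% of all genes. Their log2 fold changes had a median of -0.0091 over the 57 genes with a fold in SMARCA4-KD1 and of 0.019 over the 55 in SMARCA4-KD2, beside -0.0022 and 0.021 for all genes.

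Of the 12 dependence receptors outside the netrin system that were well above background on at least 1 array, 11 had a fold in the first knockdown and 10 in the second. With both siRNAs 3 lay past 1.5-fold below NC and 0 above, where 8.02% and 6.36% of all genes did. Nothing is read from this share, since the list was written with earlier results of these data known. Of the 3, only NGFR kept its call with normexp background correction and with spike-in scaling. NGFR, the low-affinity neurotrophin receptor, had a signal of 547 on the NC array, 287 on that of SMARCA4-KD1 and 213 on that of SMARCA4-KD2, with log2 fold changes of -1.01 and -1.40. PTCH1, the Hedgehog receptor, had 52.0 and 61.3 in the knockdowns and 111 in NC by its brightest probe, with log2 fold changes of -1.18 and -0.89. Its other 2 probes were well above background in NC only. They were at least 1.53-fold and 1.52-fold lower in SMARCA4-KD1, with log2 errors of 0.52 and 0.70. MET, the receptor of hepatocyte growth factor, had log2 fold changes of -0.67 and -0.75. RET, INSR, IGF1R, NOTCH3, KREMEN1, EPHA4 and PLXND1 stayed within 1.5-fold in each knockdown, and NTRK3 gave no fold. ALK, chosen here after its values were seen, was well above background in SMARCA4-KD1 only, at 59.0 against 3.38 in SMARCA4-KD2 and 3.88 in NC. By the reported processing it was at least 3.15-fold higher in SMARCA4-KD1 than in NC, with a log2 error of 1.46.

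Of 6 further netrin receptors and coreceptors well above background on at least 1 array, 1 (MCAM) lay past 1.5-fold below NC in both knockdowns and 0 above. Over all genes these shares were 8.02% and 6.36%. MCAM (CD146), a cell adhesion molecule described as a netrin-1 receptor, had signals of 840.2 and 767 in the knockdowns against 1539 in NC. Its log2 fold changes were -0.96 and -1.04. LRIG3 lay on the other side, at 0.68 and 0.48, and the group had medians of 0.034 and 0.072. Of 6 other ligands of the receptors well above background on at least 1 array, 1 (DRAXIN) was past 1.5-fold below NC in both knockdowns and 0 above. DRAXIN, a secreted guidance protein that binds DCC and netrin-1, was well above background in NC only, with a signal of 31.6. By the reported processing its NC level was at least 1.98-fold and 1.97-fold those of SMARCA4-KD1 and SMARCA4-KD2, with log2 errors of 0.57 and 0.46. With normexp background correction its log2 fold changes were -0.43 and -0.42. The netrin family members NTN5 and NTNG2 had log2 fold changes of -0.38 and -0.69, and of -0.11 and -0.094. None of the 10 death effectors, among them CASP9, DAPK1 and the UNC5A partner MAGED1, was 1.5-fold apart from NC in the same direction in both knockdowns. Of these 10, 9 had a fold in each knockdown, and over all genes 8.02% lay below and 6.36% above in both. DAPK1, a kinase that acts below UNC5B in cell death, was named here after its values were seen and differed between the knockdowns. It was at least 1.69-fold lower in SMARCA4-KD1, with a log2 error of 0.47, and at a log2 fold change of 0.21 in SMARCA4-KD2.

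Of 23 measured guidance effectors, which link the receptors to the cytoskeleton, 3 lay above and 2 below NC past 1.5-fold with both siRNAs, where 6.36% and 8.02% of all genes did. RAC1, a small GTPase that drives lamellipodia below DCC, had signals of 11584 and 10276 in the knockdowns and 5396 in NC, the mean of repeated spots of which 2 were left out for outlier flags, with log2 fold changes of 1.02 and 0.90. SRC and FYN, related tyrosine kinases that phosphorylate DCC, lay on opposite sides, at 0.74 and 0.64 for SRC and at -0.85 and -0.72 for FYN. SIAH2, a ubiquitin ligase that can target DCC, was at 0.79 and 0.62. MYO10, a myosin that carries DCC to filopodia, was at -0.77 and -0.63. With normexp background correction DRAXIN, PTCH1, MET and MYO10 no longer passed 1.5-fold in both knockdowns, and with spike-in scaling PTCH1, MET, FYN and MYO10 did not. SIAH2 missed it in SMARCA4-KD2 with quantile normalization (0.50) and with the percentile over detected probes (0.58).

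Promoter sequences from RefSeq (GRCh38.p14, a later build than that of the array files) were at hand for 5 of the 9 members, running from 250 bases before to 50 after the start. CG dinucleotides, which read the same on both strands, were counted in them because DNA methylation falls on this motif; 96.0% of the 35116 promoters in the table hold at least 1, with a median of 14. UNC5A held 44 in its 300 bases, more than 95.8% of promoters, NEO1 held 35 and the 2 promoters of NTN4 held 21 and 40. The members that were not well above background held 22 (UNC5C) and 15 (DCC). The promoters of UNC5A (chr5:176810309-176810608, forward strand) and DCC (chr18:52339947-52340246, forward strand) are shown as the members with the most and the fewest, with CG in capitals.

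UNC5A promoter: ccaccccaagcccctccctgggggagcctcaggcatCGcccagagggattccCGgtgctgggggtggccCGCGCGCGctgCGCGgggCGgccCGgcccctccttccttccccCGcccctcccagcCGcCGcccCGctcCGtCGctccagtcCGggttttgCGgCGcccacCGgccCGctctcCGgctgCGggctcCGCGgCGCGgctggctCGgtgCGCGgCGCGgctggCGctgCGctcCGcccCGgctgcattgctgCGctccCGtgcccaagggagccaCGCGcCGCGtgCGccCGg
DCC promoter: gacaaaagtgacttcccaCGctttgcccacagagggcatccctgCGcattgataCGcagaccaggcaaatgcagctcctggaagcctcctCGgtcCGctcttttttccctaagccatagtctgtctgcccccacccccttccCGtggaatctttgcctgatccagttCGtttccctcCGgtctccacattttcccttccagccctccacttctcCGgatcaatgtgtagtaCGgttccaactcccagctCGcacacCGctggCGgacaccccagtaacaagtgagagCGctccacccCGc

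The fold changes of the members were recomputed under 9 other ways of processing. Changes of filter, floor or probe averaging could not move them, since each rests on 1 probe well above background on every array. Nor could the series-level table, which holds the same intensities. Only quantile scaling, normexp, the percentile over detected probes and spike-in scaling could. UNC5A stayed below NC in both knockdowns under all 9, between -0.99 and -0.63 in SMARCA4-KD1 and between -0.85 and -0.49 in SMARCA4-KD2. NTN1 stayed above NC, between 0.19 and 0.55 in SMARCA4-KD1 and between 0.28 and 0.67 in SMARCA4-KD2, where the highest, with spike-in scaling, passed 1.5-fold. UNC5B and NTN4 stayed below NC in both knockdowns except in SMARCA4-KD2 when arrays were scaled on spike-in RNA, where they were at 0.010 and 0.042. That scaling moved the median of all genes to 0.30 in the first knockdown and 0.34 in the second.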

How the data were processed

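Gene expression was measured on 1-colour (Cy3) Agilent SurePrint G3 Human v3 arrays, 1 each for SMARCA4-KD1, SMARCA4-KD2 and NC. The deposited scanner files hold spot intensity, read by the authors with the Feature Extraction software of Agilent (10.7.1.1), background-subtracted and detrended but not scaled between arrays. A deposited value table of the series gave the member probes within 3.79e-05% of these intensities. Positions (hg19) and gene names are those of the files.

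Control and outlier spots were left out, and repeated spots averaged on the log2 scale. The 75th percentile of its own array was subtracted from each log2 value. Values not well above background were set to the higher of their own and the lowest value well above background. Of the probes, 29333 were well above background on at least 1 array, and the brightest stood for each of 22619 genes. A gene was called at 1.5-fold, with no test, since each condition has 1 array and the members were chosen from this contrast. The members and lists were chosen with earlier results of these data known. Named genes are all members, SMARCA4, PRMT1, markers, further genes past 1.5-fold in both knockdowns, and the 5 nearest to UNC5A. Other genes of the further list, UNC5CL and UNC5B-AS1 were named after their values were seen. Python 3.11.15, numpy 2.4.6, pandas 2.3.3, matplotlib 3.10.9 and, for normexp with an offset of 50, limma 3.58.1 (R 4.3.3) were used. The steps were tested on simulated data, with planted changes larger than those of the members and only in genes well above background on all arrays. Recovery of smaller or dimmer changes was not tested. Sources used here do not give the time after transfection. A further siRNA sequence and the values of 1 further gene are not reported here.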

Additional observations from a re-analysis of the deposited data

How the results depend on the processing

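Processing was varied by normexp background, quantile scaling, a percentile over detected probes, a stricter or absent filter, leaving out the floor, averaging a gene's probes, taking the series-level table, and a 2-fold threshold. Scaling on 8 spike-in probes was added after the data were seen. With normexp, UNC5A had -0.67 and -0.58 in the first and second knockdown, and 0 members were lower in both knockdowns. Also, 3 further genes and 3.80% of all genes were lower in both, and 4 further genes and 3.99% of all genes were higher. NEO1 reversed to -0.040 in SMARCA4-KD2. With spike-in scaling, UNC5A had -0.63 and -0.49, and UNC5B and NTN4 reversed to 0.010 and 0.042 in SMARCA4-KD2. Then 0 members, 3 further genes and 2.89% of all genes were lower in both, and 12 further genes and 19.2% of all genes were higher. At 2-fold, 0 members, 1 further gene (NGFR) and 2.10% of all genes were lower in both, and 0 further genes and 1.46% were higher. With no filter, 4.19% of all genes were lower and 3.32% higher in both. With no floor, 5 further genes and 8.32% of all genes were higher in both. With a gene's probes averaged, 9 further genes and 7.66% of all genes were lower in both, and 3 and 5.93% were higher. The cause of these moves was not tested, except that more genes enter without a filter. Calls in SMARCA4-KD1 were lower in 52.1% of cases, against 16.2% with spike-in scaling, and in SMARCA4-KD2 in 49.0%, against 11.4%. No paired analysis was possible because each condition has 1 array. Of the values under an alternative, 119 moved by less than the spot error or not at all (counts, within 1.5 times), 28 moved by more and 3 reversed. The 119 include member fold changes that changes of filter, floor, probe averaging or source table could not move. Their number is therefore no measure of stability. Signal over background limits NEO1 most among the measured members, and allows no fold for UNC5C, UNC5D, DCC and NTN3.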

Other observations

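Transcripts whose names are close to those of the members, and which belong to neither list, were read as well. UNC5CL, a death domain protein related to UNC5C that has no netrin-binding part, had signals of 50.2 and 58.6 in the knockdowns and 61.2 in NC by the probe that was well above background, with log2 fold changes of -0.37 and -0.094. UNC5B-AS1, an RNA read from the strand opposite to UNC5B, had signals of 1127 and 1289.6 in the knockdowns and 1371 in NC, with log2 fold changes of -0.37 and -0.12. By these probes both knockdown arrays lay below NC for each. The other UNC5CL probe, not well above background on any array, read 16.2 and 5.6 in the knockdowns and 4.21 in NC.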
